A study of Homo sapiens with 4 samples.

Results

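The 32 genes described here encode the checkpoint and signalling machinery of the DNA damage response. They were taken by name from a list, chosen with earlier results of these data known. They were matched by Ensembl gene ID, with ABRAXAS1 and BABAM2 standing for the older symbols FAM175A and BRE. All 32 were found among the 63677 genes of the count files, and all 32 passed the filter on low counts, which kept 19142 genes. The RNA came from H929, an established human multiple myeloma cell line of malignant plasma cells grown in RPMI medium. One group was transduced with a non-silencing short hairpin RNA (shRNA, 2 libraries) and the other with an shRNA against ILF2 (2 libraries), a gene for a protein of complexes bound to double-stranded RNA. Total RNA depleted of ribosomal RNA was sequenced with strand information. Every sample is a transduced population of this line, so hairpin effects on other genes and differences between the populations cannot be told apart from loss of ILF2. Whether both ILF2 shRNA libraries carried the same hairpin, and how its replicates, called independent by the submitters, were separated, is not stated by the labels. The file headers tag the ILF2 shRNA libraries with different numbers without saying whether these name hairpins or replicates, so the spread within that group may be between hairpins. The p-values therefore measure only the spread between these samples.

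Cells respond to broken or stalled DNA through a pair of related kinases. ATM is switched on at double-strand breaks and signals through CHEK2 and through a chain of mediators on chromatin. In that chain MDC1 recruits the ubiquitin ligase RNF8, and the ligase RNF168 acts after RNF8. These ligases in turn bring in TP53BP1 and the BRCA1-A complex. ATR, held by its partner ATRIP on single-stranded DNA coated with RPA, is activated by TOPBP1 or ETAA1 and signals through CHEK1, which restrains the CDC25 phosphatases while WEE1 keeps cyclin-dependent kinases phosphorylated. Plasma cell tumours carry much rearranged DNA, and these pathways are studied in them as drug targets.

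The libraries held 63459322 to 72977082 counted fragments. The label check held: ILF2 went from 717 and 733 CPM (fragments scaled to library size) to 107 and 114 CPM, a log2 fold change of -2.71 (standard error 0.07; adjusted p = 9.2e-39 in edgeR). All 9 plasma cell markers were present at 83.1 CPM or more in the mean of each group, with SDC1, the gene for the surface proteoglycan CD138, at 1082 CPM in the non-silencing libraries. Of 11 markers of other cell types, CD14, CD3D, HBA1 and EPCAM had at most 5 fragments in any library, with EPCAM at 0 in all 4. CD3E was the exception, called higher at 7.86 CPM in the non-silencing mean and 16.6 CPM in the ILF2 shRNA mean, and 1 marker, PECAM1, could not be matched.

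With ILF2 shRNA, 11 of the 32 checkpoint genes fell and 3 rose (edgeR's quasi-likelihood test, Benjamini-Hochberg adjusted p under 0.05 over all 19142 genes), and 18 did not pass. The genes that fell were RNF168, WEE1, TOPBP1, CDC25A, SHPRH, CHEK1, USP1, CDC25B, BABAM1, RAD9A and ATRIP, and those that rose were ABRAXAS1, RAD17 and BABAM2. Falls were 34.4% of the members and rises 9.38%. Over all genes tested, 10.1% fell and 10.2% rose, or 20.3% in either direction. Among the 8316 genes within the members' range of CPM, 12.5% fell and 12.1% rose. The falls were modest, amounting to 14.4% to 30.5% of the non-silencing level, and the rises ran from 20.03% to 26.6%. Called members had a median absolute log2 fold change of 0.29, against 0.40 for the 3885 called genes of the whole table. The median log2 fold change was -0.09 over the 32 members and -0.0015 over all genes tested. At an unadjusted p under 0.05, 12 of the 32 members were lower and 4 higher, where 15.4% of all tested genes were lower and 15.5% higher. In 22 members the libraries of the groups did not overlap, 17 of them lower and 5 higher, where 56.5% of all tested genes did not overlap, 28% lower and 28.5% higher. Only 4 members fell without non-silencing replicate 2, and 7 fell and 0 rose without non-silencing replicate 1. RNF168 and WEE1 were the 2 members whose calls held under all 11 other settings of the tool, filter, scaling, block or libraries.

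**Figure D1:**
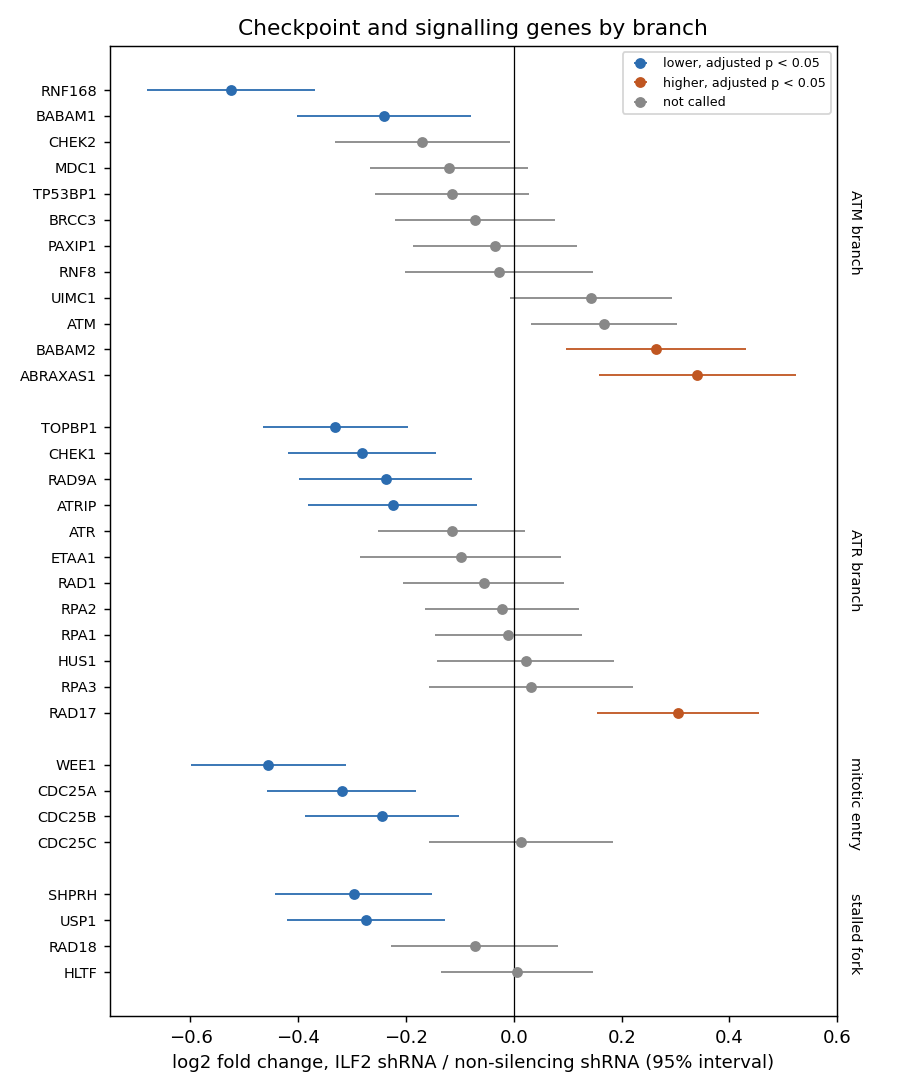
Log2 fold change of the 32 genes (horizontal axis, ILF2 shRNA over non-silencing shRNA) with 95% intervals from the edgeR fit, 2 libraries per group, grouped by branch. The 11 called falls run from -0.52 for RNF168 to -0.22 for ATRIP, and the 3 called rises lie between 0.26 and 0.34.

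In a plain culture, fewer cells in a given phase of the cycle and less RNA per cell cannot be told apart. Cell cycle genes moved in the same libraries as the checkpoint genes. Of 20 proliferation genes that are no members, among them MKI67 and the MCM helicase genes, 15 fell (75%) and 0 rose (edgeR). These genes were listed with earlier results of these data known. Over all genes tested, 10.1% fell and 10.2% rose. The median of the 20 proliferation genes was -0.26 on the log2 scale. Their summed level was 6213 and 6315 CPM in the non-silencing libraries and 5195 and 5195 CPM in the ILF2 shRNA libraries. Their part in the falls of the checkpoint genes was not tested.

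Cell cycle factors bind near the starts of many checkpoint genes, and whether they act on the members here was not tested. The promoters of some members that fell are shown. These are the 4 with the smallest adjusted p that had an entry in the RefSeq promoter table (GRCh38.p14; 250 bases before to 50 after the annotated start, gene strand, 5′ to 3′). The windows are chr3:196503719-196504018 on the minus strand for RNF168, chr3:133661892-133662191 on the minus strand for TOPBP1, chr3:48188368-48188667 on the minus strand for CDC25A and chr11:125625979-125626278 on the plus strand for CHEK1. Capitals mark the E2F words TTTCCCGC, TTTGGCGC, TTTGCCGC and TTTCGCGC and the CCAAT box, on either strand, with the reverse strand's word written as it reads on the gene strand.
RNF168: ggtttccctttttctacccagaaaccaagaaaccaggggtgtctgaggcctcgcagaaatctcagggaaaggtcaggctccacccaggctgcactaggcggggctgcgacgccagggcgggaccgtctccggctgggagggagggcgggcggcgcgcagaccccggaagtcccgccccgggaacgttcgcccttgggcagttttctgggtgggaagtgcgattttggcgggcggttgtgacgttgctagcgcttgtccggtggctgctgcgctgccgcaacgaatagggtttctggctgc
TOPBP1: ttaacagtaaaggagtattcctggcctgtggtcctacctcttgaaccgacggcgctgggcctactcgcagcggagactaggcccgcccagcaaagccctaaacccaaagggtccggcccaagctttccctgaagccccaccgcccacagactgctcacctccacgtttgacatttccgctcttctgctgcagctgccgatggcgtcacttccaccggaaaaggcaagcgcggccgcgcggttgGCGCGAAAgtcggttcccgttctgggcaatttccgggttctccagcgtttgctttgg
CDC25A: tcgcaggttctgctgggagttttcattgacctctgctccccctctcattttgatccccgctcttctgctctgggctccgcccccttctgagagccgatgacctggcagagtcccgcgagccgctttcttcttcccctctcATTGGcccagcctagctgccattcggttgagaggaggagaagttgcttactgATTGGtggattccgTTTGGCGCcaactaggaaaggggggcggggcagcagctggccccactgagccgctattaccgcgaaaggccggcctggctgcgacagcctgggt
CHEK1: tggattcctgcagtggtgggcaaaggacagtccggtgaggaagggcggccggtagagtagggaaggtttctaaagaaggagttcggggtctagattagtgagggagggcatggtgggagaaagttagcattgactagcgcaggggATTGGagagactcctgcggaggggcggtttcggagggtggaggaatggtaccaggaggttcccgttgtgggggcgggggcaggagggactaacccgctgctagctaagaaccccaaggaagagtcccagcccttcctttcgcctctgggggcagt

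Among them CDC25A had an E2F word starting 44 bases before its start and a pair of CCAAT boxes at 110 and 58 bases before it, with no overlap between the motifs. TOPBP1 had an E2F word at 7 bases before its start and CHEK1 a CCAAT box at 105 bases, while RNF168 had neither motif in this window. Of the 27 members with a promoter in the table, 3 held an E2F word (11.1%), against 5.26% of 11562 promoters of tested genes. The third was HLTF, whose level did not pass the test. CCAAT stood in 14 of the 27 (51.9%, against 36.7%). The core of the cell cycle homology region, TTTGAA on either strand, stood in 3 members (11.1%, against 9.96%), which were ATM, MDC1 and HLTF and none of the 10 matched members that fell. These matches describe letters in a window and are not evidence of binding.

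In the ATM branch, the median of the 12 genes was -0.05 on the log2 scale. Of the 12, 2 fell and 2 rose, or 16.7% each, where 10.1% of all genes tested fell and 10.2% rose. Each of these counts became 1 without non-silencing replicate 2, and leaving out non-silencing replicate 1 gave 1 fall and 0 rises. Without ILF2 shRNA replicate 1 there was 1 fall and the median was -0.10. ATM itself (ENSG00000149311; GRCh37 chr11:108093211-108239829, plus strand) was the most abundant member by count. It had 308 and 333 CPM in the non-silencing libraries and 377 and 344 CPM in the ILF2 shRNA libraries, so the groups did not overlap and ATM was the higher with ILF2 shRNA. Its log2 fold change of 0.17 (95% interval 0.03 to 0.30) did not pass (edgeR adjusted p = 0.07), but it did without ILF2 shRNA replicate 2 (0.23, adjusted p = 0.0088). ATM stood at 0.10 on leaving out ILF2 shRNA replicate 1 (adjusted p = 0.33) and at 0.11 on leaving out non-silencing replicate 1 (adjusted p = 0.6). CHEK2, the effector kinase of ATM, had 24.6 and 26.4 CPM against 23.1 and 22.3 CPM. Its libraries did not overlap either, and its log2 fold change was -0.17 (95% interval -0.33 to -0.01; edgeR adjusted p = 0.14). CHEK2 has pseudogene copies, and fragments that map to several places are taken to be left out, so its level is uncertain.

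Of the mediators and ubiquitin ligases that act on chromatin beside a break, RNF168 fell and the other 4 did not pass the test. RNF168, which spreads ubiquitin on histone H2A (ENSG00000163961; GRCh37 chr3:196195654-196230639, minus strand), had 43.1 and 47.0 CPM in the non-silencing libraries and 33.0 and 29.7 CPM in the ILF2 shRNA libraries. Each ILF2 shRNA library lay well under each non-silencing library. The log2 fold change was -0.52 (standard error 0.08; adjusted p = 4.1e-07 in edgeR), and it ran from -0.60 to -0.45 when each library was left out in turn. RNF8, the ligase that acts before RNF168, had 16.7 and 16.6 CPM against 17.3 and 15.4 CPM. The groups overlapped for RNF8, with a log2 fold change of -0.03 (95% interval -0.20 to 0.15). Per library, the length-adjusted level of RNF168 was 3.18 and 3.48 times that of RNF8 in the non-silencing libraries and 2.35 and 2.37 times in the ILF2 shRNA libraries. That ratio was lower in both ILF2 shRNA libraries, although with 2 libraries against 2 a two-sided exact permutation test cannot go below p = 0.333. Ratios were also taken for other pairs of members. The groups overlapped for RPA1 to RPA2, RPA3 to RPA2, ATRIP to ATR and CDC25B to CDC25A, and not for the other pairs.

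MDC1, the scaffold that binds phosphorylated H2AX, had a log2 fold change of -0.12, and TP53BP1, which shields broken ends from resection, had -0.11. PAXIP1, an adaptor with BRCT domains, had -0.04. The value of MDC1 was -0.029 on leaving out non-silencing replicate 1 and -0.21 on leaving out non-silencing replicate 2. The 95% intervals of these 3 genes reached from -0.27 to 0.12 at their widest, so a fall of the size of RNF168's lay outside them.

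The BRCA1-A complex, which brings a deubiquitinase to ubiquitin at breaks, split in direction: 2 of its 5 genes rose and 1 fell. Over all genes tested, 10.2% rose and 10.1% fell. ABRAXAS1, the scaffold subunit, had 11.2 and 13.1 CPM in the non-silencing libraries and 15.8 and 14.9 CPM in the ILF2 shRNA libraries. Both ILF2 shRNA libraries were the higher, at 0.34 on the log2 scale (standard error 0.09; adjusted p = 0.0043 in edgeR). The call ended without non-silencing replicate 1, the lower of its pair (0.23, adjusted p = 0.25). BABAM2, the subunit that holds the complex together, went from 18.03 and 17.9 CPM to 21.2 and 21.9 CPM. That was a log2 fold change of 0.26 (standard error 0.08; adjusted p = 0.017 in edgeR). BABAM2 lost its call without non-silencing replicate 1 (0.27), non-silencing replicate 2 (0.26) or ILF2 shRNA replicate 2 (0.24). BABAM2 also lost it with the replicate number as a block in edgeR (adjusted p = 0.1). Of its exon bases 9.55% are shared with MRPL33 on the same strand.

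BABAM1, which bridges subunits of the same complex, moved the other way. It went from 27.0 and 27.7 CPM to 22.3 and 23.9 CPM, a log2 fold change of -0.24 (standard error 0.08; adjusted p = 0.025 in edgeR). Its call ended without non-silencing replicate 1 (-0.26), non-silencing replicate 2 (-0.22) or ILF2 shRNA replicate 1 (-0.19). BABAM1 also lost it with the replicate number as a block in edgeR (adjusted p = 0.13). Of its exon bases 32.3% are shared with another annotated gene on the same strand, where fragments are taken to be left out. UIMC1, the ubiquitin-binding subunit known as RAP80, stood at 0.14 on the log2 scale and the deubiquitinase gene BRCC3 at -0.07, and neither passed. UIMC1 lies on chromosome 5, and with the median of that chromosome subtracted it stood at -0.0058. The summed level of the 5 genes was 145 and 153 CPM in the non-silencing libraries and 154 and 152 CPM in the ILF2 shRNA libraries, which overlapped.

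In the ATR branch, 4 of 12 genes fell and 1 rose, and the median of the 12 was -0.08 on the log2 scale. Without non-silencing replicate 2 the falls numbered 1, and they numbered 2 on leaving out non-silencing replicate 1 or ILF2 shRNA replicate 1. The rise, of RAD17, also went without non-silencing replicate 1. The shares that fell were 33.3% in this branch and 16.7% in the ATM branch, beside 10.1% over all genes tested. In this branch 8.33% rose, beside 10.2% over all genes tested. The difference between the branches was not tested.

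The 3 RPA genes, whose products coat single-stranded DNA, had overlapping groups throughout. RPA1 had 129 and 122 CPM in the non-silencing libraries and 123 and 126 CPM in the ILF2 shRNA libraries. RPA2 had 62.8 and 63.2 CPM against 60.2 and 63.9 CPM, and RPA3 had 10.99 and 11.7 CPM against 12.5 and 10.7 CPM. Log2 fold changes were -0.01, -0.02 and 0.03, with 95% intervals of -0.15 to 0.13, -0.16 to 0.12 and -0.16 to 0.22.

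The clamp of RAD9A, RAD1 and HUS1 and its loading subunit RAD17 did not move as one. RAD9A, the subunit that contacts TOPBP1, had 33.7 and 30.2 CPM in the non-silencing libraries and 26.1 and 28.0 CPM in the ILF2 shRNA libraries. Both ILF2 shRNA libraries were the lower, at -0.24 on the log2 scale (standard error 0.08; adjusted p = 0.026 in edgeR). The call ended without non-silencing replicate 1 (-0.16), on leaving out ILF2 shRNA replicate 1 (-0.19) and by DESeq2 (adjusted p = 0.051). RAD9A also lost it with the replicate number as a block in edgeR (adjusted p = 0.14). RAD1 stood at -0.06 on the log2 scale and HUS1 at 0.02, and neither passed. RAD17 rose from 41.5 and 47.1 CPM to 56.1 and 53.4 CPM, a log2 fold change of 0.30 (standard error 0.07; adjusted p = 0.0017 in edgeR). Without non-silencing replicate 1, its lowest library, the value was 0.22 and the call ended (adjusted p = 0.22). RAD17 and RAD1 lie on chromosome 5, where the median over 900 tested genes was 0.15 on the log2 scale. With that median subtracted RAD17 had 0.16 and RAD1 -0.20.

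TOPBP1, which binds the loaded clamp and switches ATR on, fell, and ETAA1, the activator that works through RPA, did not pass. TOPBP1 (ENSG00000163781; GRCh37 chr3:133317019-133380737, minus strand) had 182 and 193 CPM in the non-silencing libraries and 152 and 146 CPM in the ILF2 shRNA libraries. Its log2 fold change was -0.33 (standard error 0.07; adjusted p = 0.00015 in edgeR), and it lay between -0.37 and -0.29 with each library left out. Without non-silencing replicate 2 its adjusted p was 0.052. ETAA1 had 10.99 and 11.6 CPM against 10.6 and 10.5 CPM, groups that did not overlap, with a log2 fold change of -0.10 (95% interval -0.28 to 0.09).

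ATR itself had 178.5 and 192.6 CPM in the non-silencing libraries and 178.0 and 164.6 CPM in the ILF2 shRNA libraries. The groups did not overlap, by a narrow margin, with a log2 fold change of -0.12 (95% interval -0.25 to 0.02; edgeR adjusted p = 0.25). The ATR value was -0.059 on leaving out non-silencing replicate 2 and -0.060 on leaving out ILF2 shRNA replicate 2. ATRIP, which brings ATR to RPA, went from 33.4 and 33.6 CPM to 27.6 and 29.8 CPM. Its log2 fold change was -0.22 (standard error 0.08; adjusted p = 0.032 in edgeR), the called member closest to the threshold. ATRIP lost its call without non-silencing replicate 1 (-0.23), non-silencing replicate 2 (-0.22) or ILF2 shRNA replicate 1 (-0.17). ATRIP also lost it with the replicate number as a block in edgeR (adjusted p = 0.16). Of its exon bases 7.84% are shared with TREX1 on the same strand. Per length, ATRIP stood at 0.685 and 0.639 times ATR in the non-silencing libraries. The ratio was 0.567 and 0.661 in the ILF2 shRNA libraries, so the groups overlapped.

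CHEK1, the effector kinase of ATR (ENSG00000149554; GRCh37 chr11:125495036-125546150, plus strand), had 175 and 186 CPM in the non-silencing libraries and 155 and 142 CPM in the ILF2 shRNA libraries. It fell by 0.28 on the log2 scale (standard error 0.07; adjusted p = 0.0015 in edgeR), and it no longer passed without non-silencing replicate 2 (-0.23, adjusted p = 0.14). Per length, CHEK1 stood at 4.50 and 4.46 times CHEK2 in the non-silencing libraries and at 4.24 and 4.04 times in the ILF2 shRNA libraries. The level of CHEK2 is uncertain because of its pseudogene copies, and so is this ratio. CHEK1 stood at 1.87 and 1.85 times ATR in the non-silencing libraries and at 1.66 and 1.65 times in the ILF2 shRNA libraries.

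At mitotic entry, 3 of 4 genes fell, where 10.1% of all genes tested fell. The 3 include enzymes with opposite actions on cyclin-dependent kinases. WEE1, the kinase that holds CDK1 inactive (ENSG00000166483; GRCh37 chr11:9595228-9615004, plus strand), had 67.8 and 71.0 CPM in the non-silencing libraries and 51.5 and 49.8 CPM in the ILF2 shRNA libraries. The libraries of a group lay close together and the groups well apart. WEE1 fell by 0.46 on the log2 scale (standard error 0.07; adjusted p = 1.5e-06 in edgeR), between -0.49 and -0.42 with each library left out.

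CDC25A, a phosphatase that removes the marks WEE1 sets, went from 107 and 116 CPM to 89.8 and 89.0 CPM. That was a log2 fold change of -0.32 (standard error 0.07; adjusted p = 0.00037 in edgeR), with the call lost without non-silencing replicate 2 (adjusted p = 0.091). CDC25B, a phosphatase of the same family, went from 89.4 and 80.2 CPM to 70.3 and 72.9 CPM. Its log2 fold change was -0.24 (standard error 0.07; adjusted p = 0.0091 in edgeR). The call ended without non-silencing replicate 1 (-0.16) and with the replicate number as a block in edgeR (adjusted p = 0.096). CDC25C did not share in the falls, with 18.5 and 17.5 CPM against 17.7 and 18.6 CPM and overlapping groups. Its log2 fold change was 0.01 (95% interval -0.16 to 0.18), or -0.13 with the median of chromosome 5 subtracted. Per length, CDC25A stood at 3.55 and 3.67 times WEE1 in the non-silencing libraries and at 3.91 and 4.02 times in the ILF2 shRNA libraries.

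**Figure D2:**
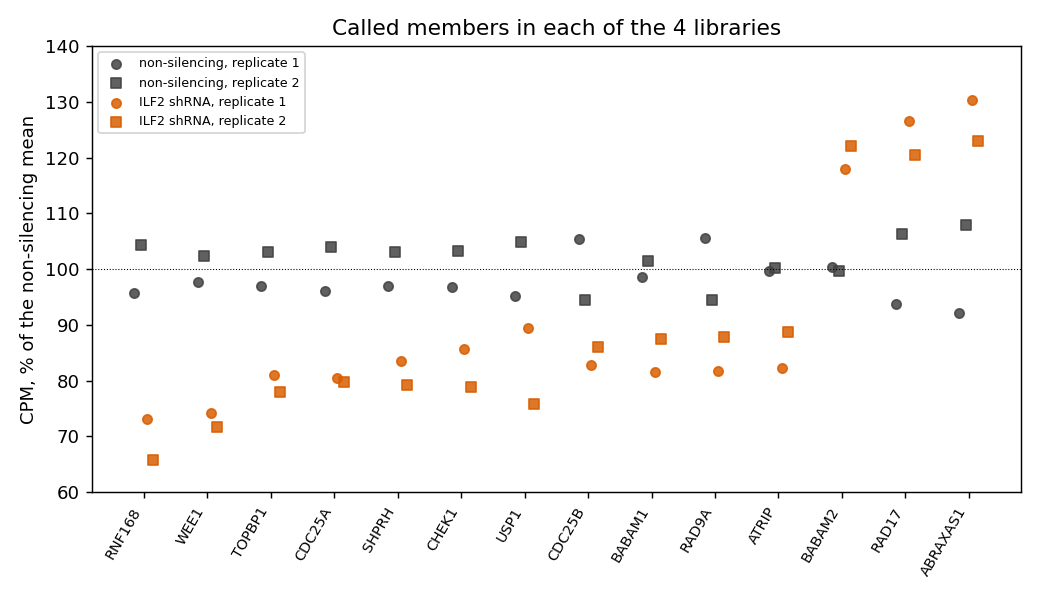
CPM of the 14 called members in each of the 4 libraries as a percentage of the gene's non-silencing mean (vertical axis, which starts at 60%). Grey marks are non-silencing and orange marks ILF2 shRNA libraries, circles replicate 1 and squares replicate 2. In each gene the orange and grey marks do not overlap, which also holds for 56.5% of all tested genes and is favoured by choosing called genes.

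Of the 4 genes that regulate ubiquitin on stalled forks, 2 fell, but 0 on leaving out non-silencing replicate 2 and 1 on leaving out ILF2 shRNA replicate 2. Over all genes tested, 10.1% fell. USP1, the deubiquitinase that strips ubiquitin from PCNA and FANCD2, had 130 and 143 CPM in the non-silencing libraries and 122 and 104 CPM in the ILF2 shRNA libraries. USP1 had the largest spread within the ILF2 shRNA group of the genes that fell: 113 ± 13.2 CPM (SD, n = 2). Its log2 fold change was -0.27 (standard error 0.07; adjusted p = 0.004 in edgeR). It was -0.16 without ILF2 shRNA replicate 2 (adjusted p = 0.15) and -0.20 without non-silencing replicate 2 (adjusted p = 0.24), and neither passed.

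SHPRH and HLTF encode related ligases that extend ubiquitin chains on PCNA, and their values differed. SHPRH went from 58.0 and 61.7 CPM to 50.01 and 47.4 CPM, a log2 fold change of -0.30 (standard error 0.07; adjusted p = 0.0017 in edgeR; adjusted p = 0.12 without non-silencing replicate 2). HLTF had 100.02 and 106.7 CPM against 109.1 and 98.4 CPM, with overlapping groups and a log2 fold change of 0.01 (95% interval -0.13 to 0.15). RAD18, the ligase that starts the modification, overlapped as well, with a log2 fold change of -0.07. The difference between SHPRH and HLTF was not tested.

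Per length of exon, the members spanned from 2.01 CPM per kb for ABRAXAS1 to 32.02 CPM per kb for USP1 in the non-silencing libraries. USP1, RPA2 (31.2), TOPBP1 (28.8), CHEK1 (27.6), CDC25A (27.1) and RPA1 (22.9) stood highest on this scale. ABRAXAS1, RNF8 (2.53), ETAA1 (3.24), SHPRH (3.39) and RPA3 (3.51) stood lowest. Of the 6 highest genes, 4 fell (USP1, TOPBP1, CHEK1 and CDC25A), where 34.4% of the 32 members and 10.1% of all genes tested fell. The ranking uses the non-silencing mean, which also enters the fold change, and a link between level and fall was not tested. In the ILF2 shRNA libraries RPA2 (30.7) stood above USP1 (26.5). USP1 lay below both RPA2 libraries there, and it overlapped RPA2 in the non-silencing libraries. The exon length sums all annotated isoforms, so a gene with long, rarely used exons reads low on this scale.

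**Figure D3:**
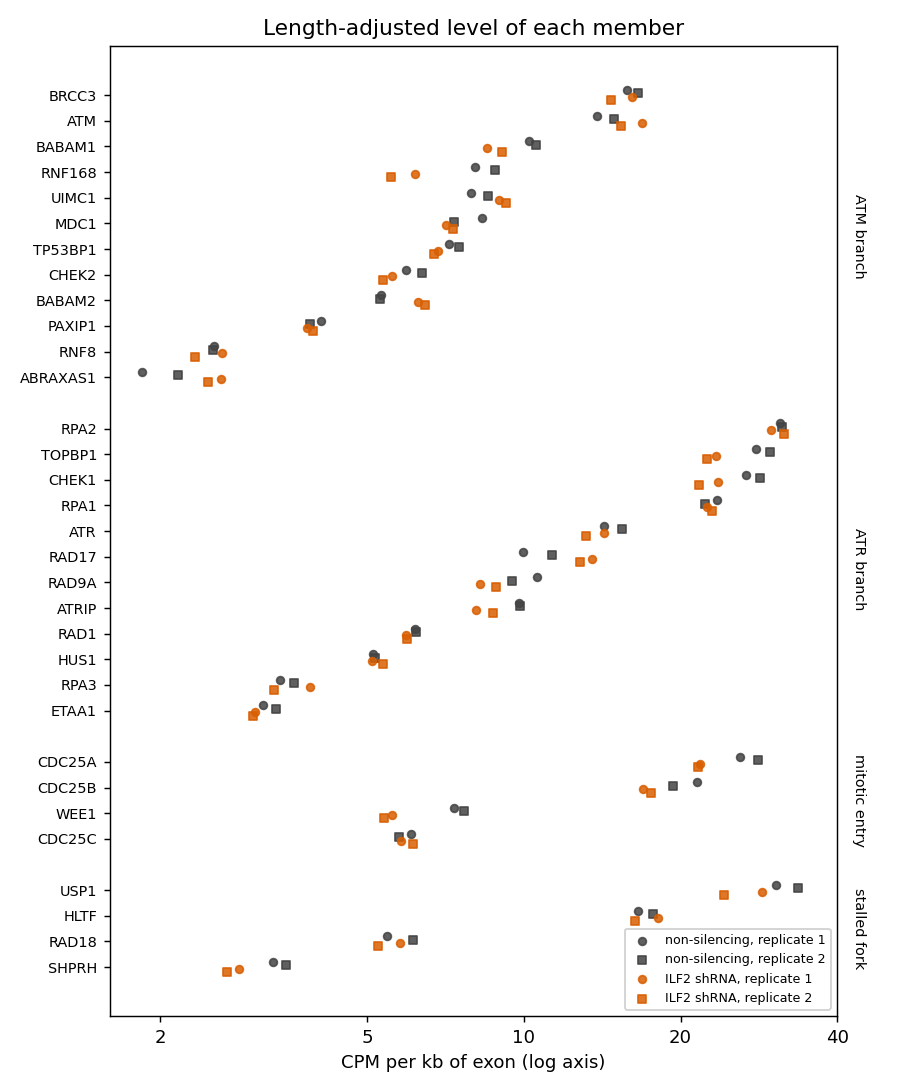
Length-adjusted level of the 32 genes in CPM per kb of exon (horizontal log axis) in each library, ordered within each branch by the non-silencing mean. Orange marks are ILF2 shRNA and grey marks non-silencing libraries, and the members lie between ABRAXAS1 at 2.01 and USP1 at 32.02 in the non-silencing mean.

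Around the members, 57 further genes of the same pathways, listed with earlier results of these data known, were examined, and 19 fell and 4 rose. That was 33.3% and 7.02%, beside 10.1% and 10.2% over all genes by edgeR. On leaving out a library the falls numbered 11 (non-silencing replicate 1), 6 (non-silencing replicate 2) or 12 (ILF2 shRNA replicate 2). Leaving out non-silencing replicate 1 left 1 rise, that of UBE2B. Lowest in adjusted p stood PKMYT1, the membrane-bound relative of WEE1 (-0.44, adjusted p = 5.5e-06 in edgeR), H2AX, the histone variant phosphorylated by ATM and ATR (-0.42), and CCNA2, the gene for cyclin A (-0.39). UBE2B, the E2 enzyme that works with RAD18, rose by 0.46 on the log2 scale, while CDK2 had -0.38 and ATAD5, which unloads PCNA and recruits USP1, had -0.35. ATAD5 lost its call without non-silencing replicate 2 (adjusted p = 0.091).

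Some neighbours of the members were picked after their values were seen. CLSPN, the gene for claspin that links ATR to CHEK1, had -0.21 (edgeR adjusted p = 0.026). The call ended without non-silencing replicate 1 (-0.25), non-silencing replicate 2 (-0.18) or ILF2 shRNA replicate 2 (-0.13). CLSPN also lost it with the replicate number as a block in edgeR (adjusted p = 0.16). BRCA1, partner of the complex that holds ABRAXAS1, had -0.28, with its call lost without non-silencing replicate 2 (adjusted p = 0.19). CDK1, the target of WEE1 and the CDC25 enzymes, had -0.25. Its call ended without non-silencing replicate 1 (-0.28), non-silencing replicate 2 (-0.21) or ILF2 shRNA replicate 2 (-0.17). CDK1 also lost it with the replicate number as a block in edgeR (adjusted p = 0.093). Of the effectors, CDKN1A, which encodes the cyclin-dependent kinase inhibitor p21, had -0.14 and did not pass. Of the 9 genes for ATR partners 5 fell and 0 rose, but 0 fell on leaving out either non-silencing replicate 2 or ILF2 shRNA replicate 2, and 2 fell on leaving out non-silencing replicate 1. Of the 9 for ATM activation 3 fell and 1, RAD50, rose, a rise absent on leaving out non-silencing replicate 1 or ILF2 shRNA replicate 1.

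Chromosome 5 carried a share of the rises. Of its 900 tested genes 29.7% were higher and 3.33% lower. Among the members, RAD17 was the 1 of 3 risers on it, and UIMC1, RAD1 and CDC25C lie on it too and did not pass. Among the 57 further genes, 3 of the 4 risers lie on it, which are UBE2B, RAD50 and SHLD3, and the fourth, PIAS1, lies on chromosome 15. Without non-silencing replicate 1 the calls of RAD50 (adjusted p = 0.069), SHLD3 (0.21) and PIAS1 (0.051) ended. RAD50 (0.18) and SHLD3 (0.37) also lost theirs on leaving out ILF2 shRNA replicate 1, and SHLD3 by DESeq2 (adjusted p = 0.097). No other chromosome's median was farther from 0 than 0.04 on the log2 scale. With chromosome 5 left out of the fit, 11 of 28 members fell and 2 rose, 0 of 10 ATR-branch genes rose, and 1 of 53 further genes rose. The risers on chromosome 5 were not in that fit, so the fewer rises do not show that their calls changed. With each chromosome's own median subtracted, the median of the 32 members was -0.11.

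**Figure D4:**
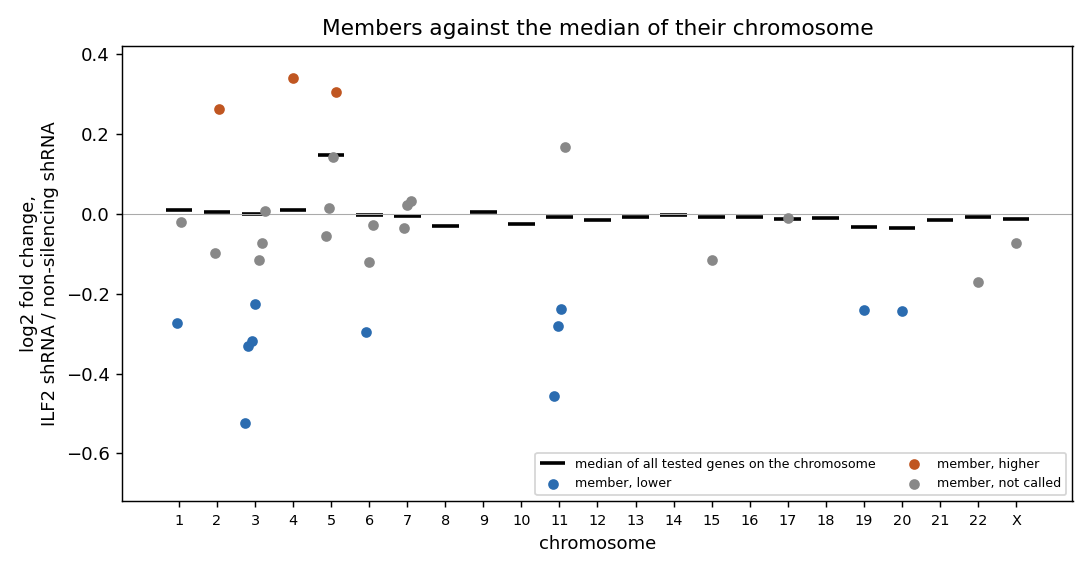
Log2 fold change of each member (points) beside the median of all tested genes on its chromosome (bars), ILF2 shRNA over non-silencing shRNA. The bar of chromosome 5 stands at 0.15 and the others lie within 0.04 of 0, while the called falls lie on chromosomes 1, 3, 6, 11, 19 and 20.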

How the data were processed

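Per the file headers, the authors counted fragments per gene with featureCounts (Subread 1.4.6-p2; paired, strand setting 2, exons summed by gene_id, Ensembl GRCh37), and these raw counts are the values deposited. The headers show no option that keeps multi-mapping or multi-gene fragments, which are therefore treated as uncounted. Alignment tools named in the submitters' processing notes are SAMtools 0.1.19 and STAR 2.3.0, while the design text names Tophat2. Symbols came from GENCODE's GRCh37 annotation by Ensembl ID (55665 of 63677 matched).

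Counts of all 4 libraries were fitted in edgeR 4.0.16 (R 4.3.3) with TMM factors, filterByExpr at a minimum count of 10, robust dispersions and its quasi-likelihood F test. The model held the group and no covariate. CPM uses the TMM-adjusted library size, SE comes from the F statistic, and intervals are at 95% from the fit's t distribution. The procedure was tested on simulated counts whose planted changes were larger than most of those called here, so smaller changes were not covered. Depth gave each member at least 677 fragments in every library.

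Alternatives were DESeq2 1.42.0, limma-voom (limma 3.58.1), other factors and filters, the replicate number as a block, each library left out, and each chromosome's median subtracted. The fit without chromosome 5 was added after seeing the data. With 1 library left in a group, that library is assumed to vary like the other group.

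The members and lists were chosen with earlier results of these data known. All members were to be named, with the 6 further genes of smallest adjusted p. Promoters are RefSeq's (GRCh38.p14, 27305 symbols, first entry of each). Protein sequence was not used here.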

Additional observations from a re-analysis of the deposited data

How the results depend on the processing

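All 14 called members kept their direction under 11 other settings, and 2 (RNF168 and WEE1) kept their call in each. DESeq2 called 3 members higher and 10 lower, and the other factors, filters and limma-voom gave 3 and 11 as reported. Replicate 1 of each group deviated from its group mean with a correlation of -0.0247 over genes. A single value over all genes cannot show that samples of the same number share nothing else. With the replicate number as a block 7 members fell and 2 rose, the ATM branch had 1 rise and 1 fall, the ATR branch 2 falls, the further genes 9 falls, and 1291 of all genes were higher and 1297 lower. Without chromosome 5 the ATR branch had 0 rises and the further genes 1. RAD17, UBE2B, RAD50 and SHLD3 lie on that chromosome and were not in this fit, so the drop was fixed in advance. With each library left out in turn, members ranged from 0 to 3 rises and 4 to 10 falls, the ATM branch from 0 to 2 rises and 1 to 2 falls with a median of -0.10 to -0.028, and the ATR branch from 0 to 1 rises and 1 to 4 falls. The further genes ranged from 1 to 4 rises and 6 to 19 falls, and all genes from 1029 to 1899 rises and 1070 to 1822 falls. Fewer samples enter these fits.

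Direction turned only in genes that did not pass. With a library left out the log2 fold change ran from -0.11 to 0.056 for RNF8, -0.072 to 0.0019 for PAXIP1, -0.049 to 0.029 for RPA1, -0.066 to 0.024 for RPA2, -0.081 to 0.14 for RPA3, -0.012 to 0.058 for HUS1, -0.026 to 0.054 for CDC25C, -0.15 to 0.013 for RAD18 and -0.068 to 0.079 for HLTF. HLTF was -0.0018 with no low-count filter and -0.00031 with upper-quartile factors. With the median of its chromosome subtracted UIMC1 turned to -0.0058, CDC25C to -0.13 and RPA1 to 0.0026. The cause was not tested. With 2 libraries per group, a gene that did not pass is not shown to be equal between the groups.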
